A study of Homo sapiens with 90 samples.

Results

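The comparison described here set A673 cells exposed for 24 h to 0.03, 0.1 or 0.3 µM fenbuconazole against A673 cells given the DMSO vehicle alone. Its arrays were chosen by their labels: 9 arrays of fenbuconazole, 3 at each of these concentrations, and the 3 DMSO arrays that were normalized together with the fenbuconazole arrays, which makes 12 of the 90 array columns of the series. In the whole series, A673 cells received fenbuconazole, imazalil or 2,4-D, each at 9 concentrations from 0.001 to 10 µM with 3 arrays per concentration, or DMSO. Cells of every group, controls included, were plated at 26000 per well of a 96-well plate, left to attach for 24 h and kept at 0.2% DMSO during exposure. A673 is 1 established line from a Ewing sarcoma, a tumour of bone and soft tissue driven by the EWSR1-FLI1 fusion protein, so every result is that of a single tumour line at a single time. The methods describe independent experiments on separate batches of cells, but the labels do not state that a replicate number names a batch, and p-values below measure the spread between these arrays.

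Fenbuconazole is a triazole fungicide that blocks the fungal lanosterol demethylase CYP51, and the human enzyme of the same family, CYP51A1, works in cholesterol synthesis. In liver, azole fungicides are known to act on the nuclear receptors CAR, which is encoded by NR1I3, and PXR, and these receptors switch on cytochrome P450 genes of drug metabolism such as CYP2B6 and CYP3A4. A fall in cellular sterol releases the SREBP transcription factors, which raise HMGCS1, INSIG1 and other genes of sterol synthesis and uptake. The comparison asks which transcripts differ from the vehicle at concentrations in the middle of the tested range.

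The labels give the DMSO arrays as common to the 3 chemicals, and these carry the same running numbers in every set. After the mean of each probe set within its own set was subtracted, the fenbuconazole set's DMSO columns correlated with those of equal number in the imazalil set at r = 0.13, 0.11 and 0.18 across probe sets, while imazalil and 2,4-D DMSO columns of equal number correlated at 0.87, 0.87 and 0.88. The 3 DMSO columns used here were accordingly taken as separate arrays. Within each replicate number the running number in the labels was 1 lower at each next higher concentration, and that of DMSO was the lowest, and what the number stands for is not given in the sources used here, so whatever it marks and concentration cannot be told apart. The 7 Ewing sarcoma markers measured, among them NKX2-2 and CCND1, lay in the brightest of 4 equal groups of probe sets by mean level, with mean levels of 6.18 to 12.1 on the log2 scale at 0.03 to 0.3 µM. Their summed level spanned 13.30 to 13.43 at 0.03 to 0.3 µM and 13.30 to 13.35 in DMSO. Of 7 hepatocyte markers 6 lay in the dimmer 2 groups, as did 5 of 6 blood markers. Of 8 fibroblast markers 4 lay in the brightest group, among them the collagen gene COL1A2 at 9.21, and 2 of 8 epithelial markers did so, among them KRT18 at 10.1. No marker of any list passed the test.

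In the pooled comparison, 16 of 54613 probe sets passed an adjusted p of 0.05 (limma with the replicate number as a block, Benjamini-Hochberg over all probe sets), a share of 0.0293%. Of these 9 rose (0.0165%) and 7 fell (0.0128%). The 9 that rose changed by 0.60 to 1.00 on the log2 scale and the 7 that fell changed by -0.64 to -0.50, and none exceeded a 2-fold change. Without the replicate block 3 passed, all of them lower and ABHD1 and LINC02028 among them, so that none of the 9 that rose kept its call, and the split was the same with a random block (limma). With only the 12 arrays of the contrast none passed, with 6041 at an unadjusted p of 0.05 (limma). The 16 were chosen by this difference on these arrays, and the share whose groups do not overlap follows from that choice: the 9 treated and 3 DMSO values did not overlap for 14 of the 16, and over all probe sets the treated values lay wholly above DMSO for 419 (0.767%) and wholly below it for 553 (1.01%). At an unadjusted p of 0.05, 6009 probe sets (11%) differed, 2983 upward (5.46%) and 3026 downward (5.54%). The median 95% interval of a change, not adjusted for the number of probe sets, reached 0.21 to either side. Smaller changes were not detectable for most probe sets, and larger ones could also miss the adjusted threshold. The change smallest in size among the 16 was -0.50. The count rests on few arrays: it was 0 without any of the 3 replicate numbers, and with single arrays left out it was 65 without DMSO replicate 3, 31 without 0.03 µM replicate 2, 19 without 0.3 µM replicate 3 and 1 to 5 without any other of the 12 arrays.

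**Figure D1:**
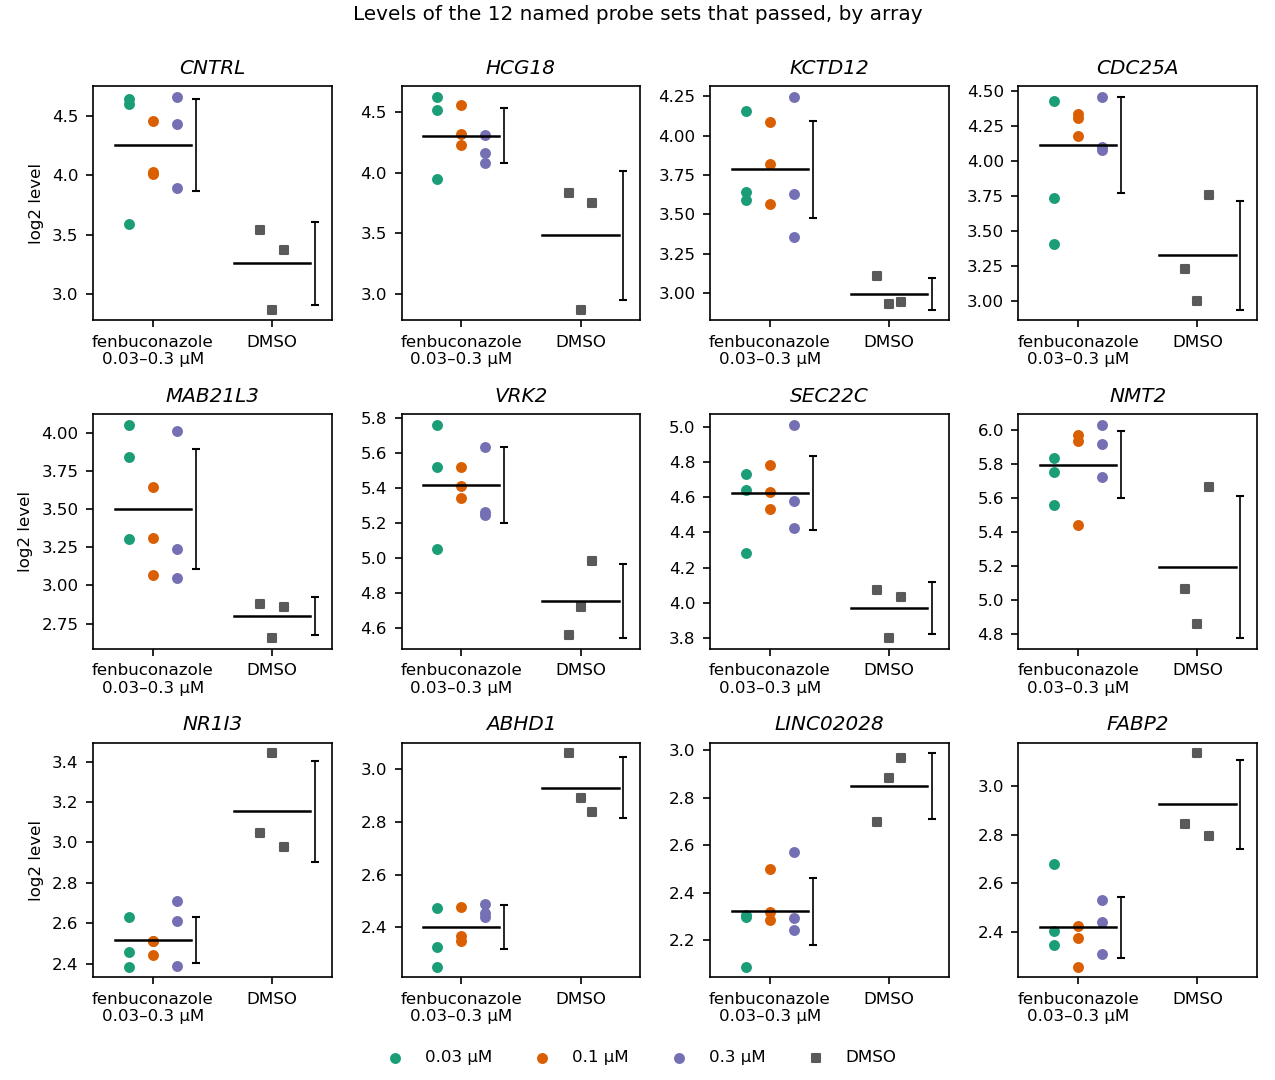
Level (log2, vertical axis of each panel) of the 12 probe sets with a gene symbol that passed, on each of the 9 arrays at 0.03, 0.1 and 0.3 µM fenbuconazole (coloured circles, left) and the 3 DMSO arrays (grey squares, right). Horizontal bars are means and vertical bars 1 SD. CNTRL had a treated mean of 4.26 against 3.26 in DMSO, and in the CDC25A and NMT2 panels the highest DMSO value lies above the lowest treated value.

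CNTRL, CDC25A and VRK2 rose at 0.03 to 0.3 µM. CNTRL encodes centriolin, a centrosome protein needed for the last step of cell division, and its probe set 242916_PM_at showed the largest change of the 16. It had values of 3.59 to 4.66 with a median of 4.44 at 0.03 to 0.3 µM, against 3.54, 2.87 and 3.37 in DMSO. All 9 treated values lay above the 3 DMSO values, although the lowest treated array (0.03 µM replicate 2) exceeded DMSO replicate 1 by little. The level was 1.00 higher with an SE of 0.14 (95% interval 0.70 to 1.30, adjusted p = 0.0132 by limma), and within the replicate numbers it was 1.04, 0.97 and 0.99 higher. CDC25A encodes a phosphatase that activates cyclin-dependent kinases at entry into S phase. Its probe set 1555772_PM_a_at had values of 3.41 to 4.46 with a median of 4.18 at 0.03 to 0.3 µM, against 3.23, 3.00 and 3.76 in DMSO. The groups overlapped, because DMSO replicate 3 lay above the lowest treated arrays. The change was 0.79 with an SE of 0.14 (adjusted p = 0.0475, limma). VRK2, a serine/threonine kinase, had values of 5.05 to 5.76 with a median of 5.41 at 0.03 to 0.3 µM, against 4.56, 4.72 and 4.98 in DMSO. Here the groups did not overlap, and the change of 0.66 (SE 0.12, adjusted p = 0.0475, limma) was larger in replicate 1, at 1.08, than in replicates 2 and 3, at 0.49 and 0.42.

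SEC22C, NMT2 and KCTD12 rose as well. SEC22C encodes a protein of vesicle transport between the endoplasmic reticulum and the Golgi. It had values of 4.28 to 5.01 with a median of 4.63 at 0.03 to 0.3 µM, against 4.08, 3.80 and 4.03 in DMSO, with no overlap, and changed by 0.65 (SE 0.11, adjusted p = 0.0318, limma). NMT2 encodes an enzyme that attaches myristate to the start of proteins. It had values of 5.44 to 6.03 with a median of 5.84 at 0.03 to 0.3 µM, against 5.06, 4.86 and 5.66 in DMSO. DMSO replicate 3 lay within the treated range, and the change of 0.60 (SE 0.11, adjusted p = 0.0475, limma) was 0.84, 0.72 and 0.26 within the replicate numbers. KCTD12 encodes an auxiliary subunit of GABA-B receptors. It had values of 3.35 to 4.25 with a median of 3.64 at 0.03 to 0.3 µM, against 3.11, 2.93 and 2.94 in DMSO, with no overlap, and changed by 0.79 (SE 0.14, adjusted p = 0.0475, limma).

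MAB21L3, a little-characterised member of the Mab-21 family, had values of 3.05 to 4.05 with a median of 3.31 at 0.03 to 0.3 µM, against 2.88, 2.66 and 2.86 in DMSO. The highest treated values were those of replicate 1 at 0.03 and 0.3 µM, and the groups did not overlap. The change was 0.70 with an SE of 0.13 (adjusted p = 0.0475, limma). HCG18, a long noncoding RNA gene of the major histocompatibility region, had values of 3.95 to 4.63 with a median of 4.31 at 0.03 to 0.3 µM, against 3.83, 2.87 and 3.75 in DMSO. The groups did not overlap, DMSO replicate 2 stood well below the other DMSO arrays, and the change of 0.82 (SE 0.15, adjusted p = 0.0475, limma) was 1.24 in replicate 2, against 0.59 and 0.64 in replicates 1 and 3. The ninth probe set that rose, 1553613_PM_s_at, has no gene symbol in the annotation used here and had 3.54 to 4.50 with a median of 3.86 at 0.03 to 0.3 µM, against 3.12, 3.09 and 3.12 in DMSO.

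The named genes that fell were dim. NR1I3 encodes CAR, the xenobiotic receptor described above, and is known mainly from liver. Its probe set 207007_PM_at had values of 2.39 to 2.71 with a median of 2.51 at 0.03 to 0.3 µM, against 3.05, 3.44 and 2.97 in DMSO. No treated array reached a DMSO value, and the change was -0.64 with an SE of 0.12 (95% interval -0.88 to -0.39, adjusted p = 0.0483, limma). FABP2, the fatty acid binding protein of the intestine, had values of 2.26 to 2.68 with a median of 2.40 at 0.03 to 0.3 µM, against 2.84, 3.14 and 2.80 in DMSO. ABHD1, of the alpha/beta hydrolase family, had values of 2.25 to 2.49 with a median of 2.44 at 0.03 to 0.3 µM, against 3.06, 2.89 and 2.84 in DMSO. Neither gene's groups overlapped, and the changes were -0.51 (SE 0.09) for FABP2 and -0.53 (SE 0.08) for ABHD1, with adjusted p of 0.0475 and 0.0318 (limma). LINC02028, a long intergenic noncoding RNA, had values of 2.09 to 2.57 with a median of 2.30 at 0.03 to 0.3 µM, against 2.70, 2.88 and 2.97 in DMSO, also without overlap, and changed by -0.53 (SE 0.09, adjusted p = 0.0318, limma). The other 3 that fell have no symbol here (1562231_PM_at, 229321_PM_s_at and 1570432_PM_at), and changed by -0.64, -0.51 and -0.50.

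The level at which a probe set lay went with the direction of its change. Of the 7 probe sets that fell, 6 lay in the second group of mean level (2.33 to 2.77) and had treated means below 3. Of the 9 that rose, 8 lay in the third group (2.77 to 5.35) and 1 in the fourth. Over all probe sets at an unadjusted p of 0.05, 1.78% of the dimmest group were higher and 6.23% lower, whereas 9.57% of the third group were higher and 5.04% lower. In the second group 3.06% were higher and 7.67% lower, and in the fourth 7.43% and 3.22%. The 23 control probe sets for nonspecific hybridization averaged 2.46 to 2.657 on the 9 treated arrays with a median of 2.52, against 2.68, 2.68 and 2.659 on the DMSO arrays. The groups did not overlap, although the highest treated array lay close to the lowest DMSO array. The difference of means was -0.14, and its two-sided exact permutation p within replicate numbers was 0.0156, the smallest that 64 regroupings can give. This measure was chosen after seeing the data. NR1I3, FABP2, ABHD1 and LINC02028 had treated means of 2.32 to 2.52, at or below the treated median of these controls. The DMSO means of the 9 probe sets that rose ran from 2.80, for MAB21L3, to 5.19, for NMT2. KCTD12 had 2.99, so some that rose also lay not far above these controls in DMSO. With the nonspecific control level as a covariate beside the block, none of the 16 passed (adjusted p of the 12 named genes 0.313 to 0.765, limma), and 3190 probe sets differed at an unadjusted p of 0.05. In that fit the change moved by over 1.5 times for MAB21L3 (0.40, against 0.70 without the covariate), HCG18 (0.52 against 0.82) and NR1I3 (-0.42 against -0.64). It was 0.46 for VRK2, 0.50 for NMT2, 0.56 for SEC22C, 0.63 for CDC25A, 0.88 for KCTD12 and 1.00 for CNTRL, and -0.34 for FABP2, -0.48 for ABHD1 and -0.50 for LINC02028.

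RNA quality was followed by the manufacturer's controls for ACTB and GAPDH, which match the 3′ and 5′ ends of these transcripts, since a larger 3′ minus 5′ value goes with more degraded or less fully copied RNA. For ACTB it was 0.23 to 0.62 with a median of 0.46 at 0.03 to 0.3 µM, against 0.28, 0.27 and 0.39 in DMSO. The difference of means was 0.13, higher in each of the 3 replicate numbers, and did not pass (two-sided exact permutation p = 0.125). For GAPDH it was -0.18 to 0.004 with a median of -0.10 at 0.03 to 0.3 µM, against -0.16, -0.08 and 0.02 in DMSO. The GAPDH groups overlapped in part, as DMSO replicate 3 lay above all treated values, and the difference was -0.02 (two-sided exact permutation p = 0.609). With both values as covariates beside the block, none of the 16 probe sets passed, and the adjusted p of the 12 named genes was 0.0594 to 0.180 (limma). Their changes in that fit included 0.87 for CNTRL, 0.70 for SEC22C, 0.72 for KCTD12, -0.58 for ABHD1 and -0.62 for NR1I3. The spread of levels over an array (interquartile range) was 2.97 to 3.09 at 0.03 to 0.3 µM, against 2.93 to 3.02 in DMSO. The Alu repeat control was 12.76 to 12.94 at 0.03 to 0.3 µM, against 12.66 to 12.77 in DMSO. Both measures overlapped between the groups but had higher means in treated arrays, each at the smallest exact permutation p of 0.0156. Over the 5 array measures the adjusted p was 0.026 for the nonspecific controls, the interquartile range and the Alu control, 0.156 for ACTB and 0.609 for GAPDH (exact permutation tests). The nonspecific controls, the interquartile range and the Alu control were chosen after seeing the data, which this adjustment does not cover.

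**Figure D2:**
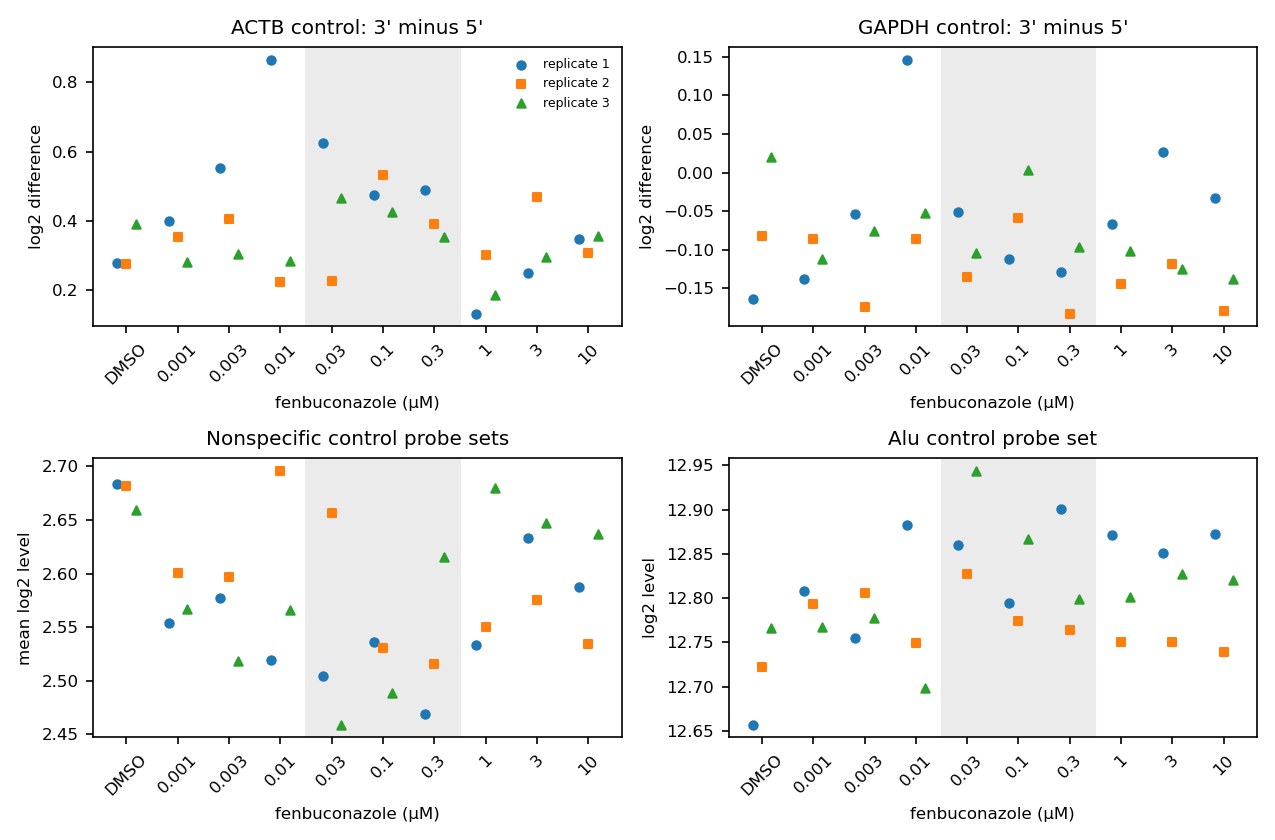
Control measures of each of the 30 arrays (vertical axes, log2) by fenbuconazole concentration (horizontal axis, DMSO at the left end), with 1 marker shape per replicate number and the pooled concentrations shaded. The nonspecific control level of the 9 shaded arrays lies at 2.657 or below, under the 3 DMSO arrays, while the 3′ minus 5′ values of ACTB and GAPDH overlap with DMSO.

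Of the 12 genes with a probe set that passed, 10 have other probe sets on the array, 21 in all. None of the 21 passed, 13 had a difference of the same sign as the one that passed, and 4 reached an unadjusted p of 0.05. Those 4 belonged to genes that rose: a second probe set of KCTD12 averaged 4.23 at 0.03 to 0.3 µM against 3.74 in DMSO (change 0.49, adjusted p = 0.227, limma), and further ones of NMT2, HCG18 and CNTRL had differences of 0.32, 0.48 and 0.32. The other 3 of HCG18 lay below DMSO in mean, with differences of -0.14, -0.07 and, for the brightest, 225584_PM_at, -0.16 (6.01 at 0.03 to 0.3 µM against 6.16 in DMSO). The other 5 of SEC22C had differences of -0.16, 0.01, 0.08, 0.12 and 0.28. The probe sets of VRK2 gave unlike values. The other one, 205126_PM_at, was brighter, with 7.56 ± 0.06 at 0.03 to 0.3 µM (SD, n = 9) against 7.61 ± 0.12 in DMSO (SD, n = 3), and its change of -0.05 had a 95% interval of -0.20 to 0.10 that does not reach the 0.66 of 243299_PM_at. For CDC25A the brightest probe set, 204695_PM_at, averaged 6.90 at 0.03 to 0.3 µM against 7.05 in DMSO (change -0.15, 95% interval -0.32 to 0.02). Its remaining probe set, 204696_PM_s_at, averaged 4.85 at 0.03 to 0.3 µM against 4.62 in DMSO (change 0.24, 95% interval -0.04 to 0.51). The second NR1I3 probe set averaged 2.20 at 0.03 to 0.3 µM against 2.14 in DMSO, with a difference of 0.07, and the others of ABHD1 had differences of -0.03 and -0.06. MAB21L3 and FABP2 have a single probe set. Whether a probe set lies in an intron was not analysed here, since the annotation used holds no probe positions. By the kind of accession it gives, 10.4% of probe sets with a RefSeq transcript reached an unadjusted p of 0.05, against 11.3% of those with another GenBank record and 10.9% of those with none, and by symbol 11.2% of those with 1 symbol did so, against 10.4% of those with none. Of the 16 that passed, 12 had a symbol and 4 had none.

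**Figure D3:**
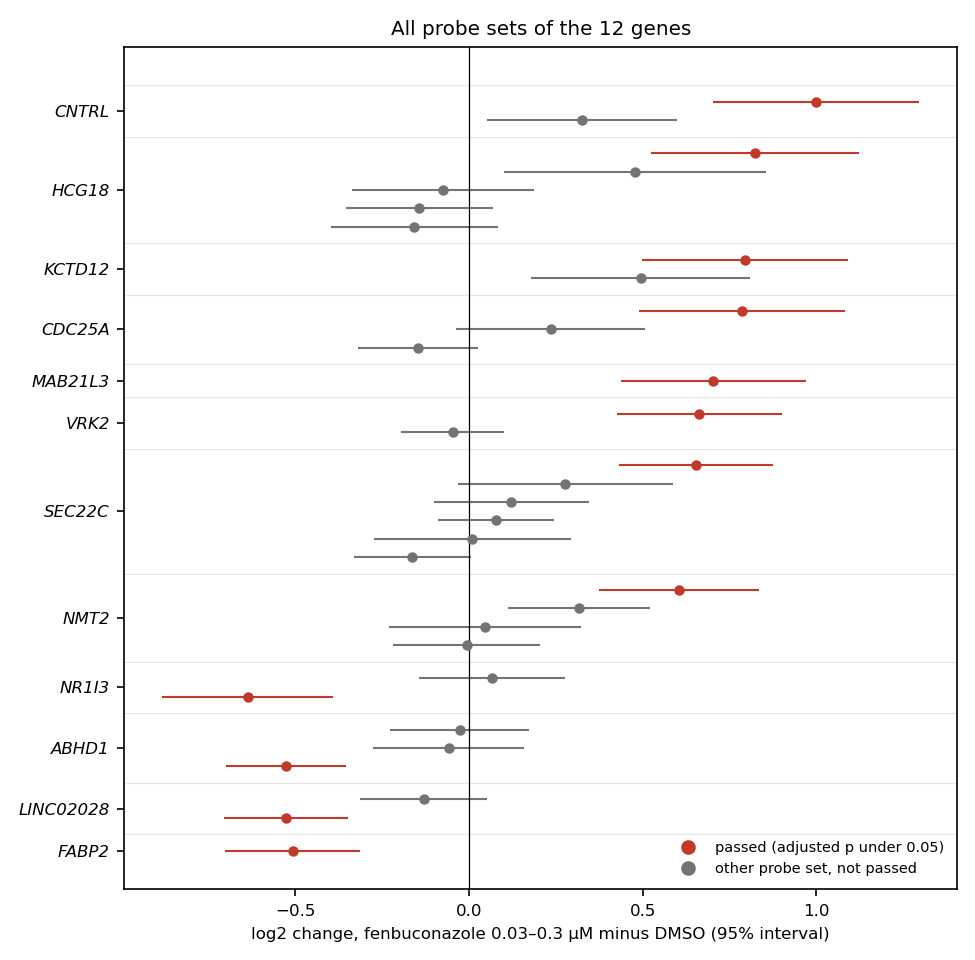
Change between fenbuconazole at 0.03 to 0.3 µM and DMSO (horizontal axis, log2, with 95% intervals) for every probe set of the 12 named genes, grouped by gene down the page. Red points passed and grey points did not: none of the 21 grey probe sets passed, and the grey points of VRK2 and of the lower CDC25A probe set lie left of 0.

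Each of the 3 concentrations was also set against DMSO alone, a comparison with fewer treated arrays that shares the DMSO arrays. No probe set passed at 0.03, 0.1 or 0.3 µM taken singly, with smallest adjusted p of 0.0524, 0.176 and 0.114 (limma), and 5258, 4662 and 4377 probe sets (9.63%, 8.54% and 8.01%) at an unadjusted p of 0.05. The values of the 16 by concentration are a description, since they were chosen on the mean of these concentrations. CNTRL was 1.02 higher at 0.03 µM, 0.91 at 0.1 µM and 1.07 at 0.3 µM. CDC25A was 0.53, 0.94 and 0.88 higher in the same order, and MAB21L3 0.93, 0.54 and 0.63.

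The 6 other concentrations of fenbuconazole (0.001, 0.003, 0.01, 1, 3 and 10 µM, 18 arrays) were set against the same DMSO arrays, from which the 16 had been chosen to differ. Their own comparison with DMSO called 2 probe sets (0.00366%), of which 1 was ABHD1, with -0.53 at 0.03 to 0.3 µM and -0.52 at the other concentrations. For CNTRL the values were 1.00 at 0.03 to 0.3 µM and 0.79 at the other concentrations, for KCTD12 0.79 and 0.60, for HCG18 0.82 and 0.52, and for NR1I3 -0.64 and -0.59. The direct comparison of the 9 arrays with those 18 does not use the DMSO arrays. It called no probe set (limma, smallest adjusted p 0.426), with 3912 (7.16%) at an unadjusted p of 0.05. Of the 16, which were chosen on the same treated arrays, CDC25A was 0.37 higher at 0.03 to 0.3 µM than at the other concentrations and HCG18 0.30 higher, whereas ABHD1 differed by -0.01 and NR1I3 by -0.05. The genes ranked first in this comparison did not pass (adjusted p 0.426 to 0.532, limma). Upward they were the transcription factor genes IKZF4 (0.27) and ARID5B (0.28), the Fanconi anaemia gene FAAP24 (0.26), the Golgi protein gene TMF1 (0.32) and the activin receptor gene ACVR1B (0.25). Downward they were WFS1, encoding wolframin of the endoplasmic reticulum (-0.25), CFAP57 (-0.23), LOC728743 (-0.29), ZNF775 (-0.30) and MEX3D (-0.30).

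**Figure D4:**
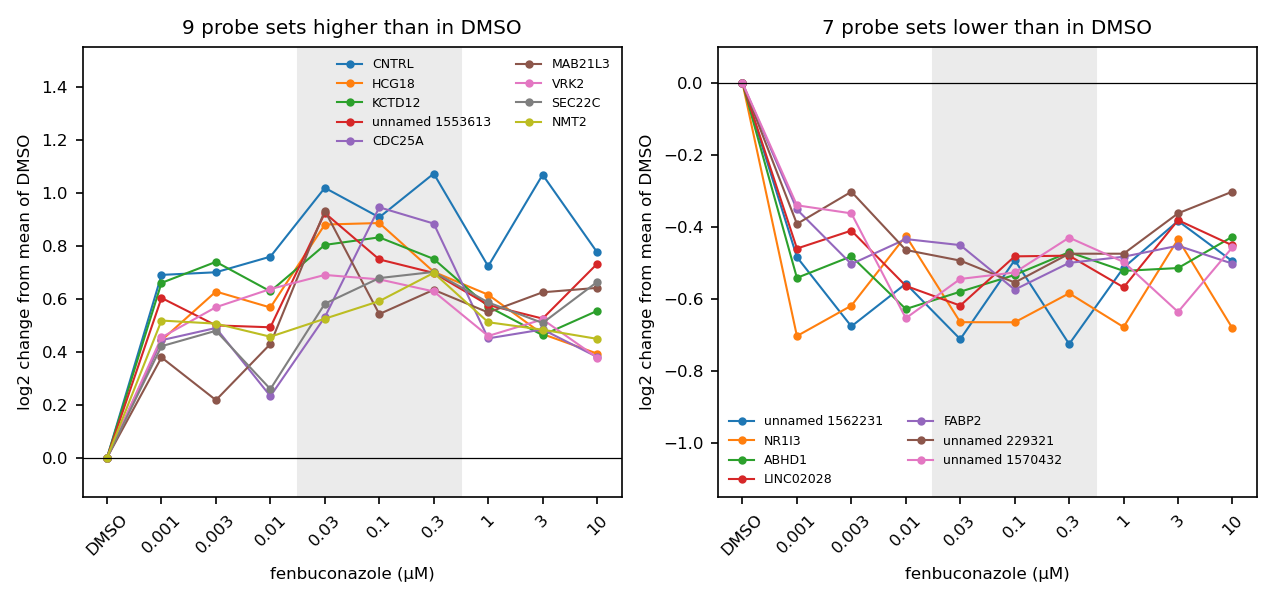
Mean level of the 16 probe sets at each fenbuconazole concentration minus the DMSO mean (vertical axis, log2; horizontal axis, µM, DMSO at the left end; pooled concentrations shaded; n = 3 arrays per point), with the 9 that rose on the left and the 7 that fell on the right. All points are set against the 1 DMSO mean from which the 16 were chosen to differ, and CNTRL lies at 1.02, 0.91 and 1.07 at the shaded concentrations.

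Genes on the pathway of the drug's fungal target showed no call. CYP51A1 had levels of 8.77 to 9.16 with a median of 9.02 at 0.03 to 0.3 µM, against 9.06, 8.84 and 8.64 in DMSO. The groups overlapped, and the change of 0.15 had a 95% interval of -0.05 to 0.36 (adjusted p = 0.606, limma). HMGCS1, which makes the precursor of mevalonate, had a difference of -0.02 (95% interval -0.31 to 0.26) and INSIG1, which holds back SREBP, one of 0.09 (95% interval -0.15 to 0.32). Of 20 measured genes of cholesterol synthesis and uptake 7 were above DMSO in mean, none passed, and the median change was -0.01, where over all 19774 genes 47.9% were above DMSO, the median was -0.01, 10.4% had an unadjusted p under 0.05 and 5 passed (0.0253%). Only MVK and MVD, enzymes of the mevalonate pathway, had an unadjusted p under 0.05, with changes of -0.25 and -0.35. Of 13 genes of fatty acid synthesis none passed (median -0.01), with 1 higher and 2 lower at an unadjusted p of 0.05. The desaturase gene FADS2 had values of 7.92 to 8.21 with a median of 8.18 at 0.03 to 0.3 µM, against 8.28, 8.45 and 8.28 in DMSO. Its groups did not overlap, and over all probe sets 1.01% lay wholly below DMSO in this way. The FADS2 change of -0.23 did not pass (adjusted p = 0.291, limma).

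Among 13 measured targets and members of the CAR and PXR system, NR1I3 passed and no other did, 4 were above DMSO in mean, and the median change was -0.06. CYP2B6 had 2.74 to 3.18 with a median of 3.00 at 0.03 to 0.3 µM, against 3.13, 2.94 and 2.98 in DMSO, and CYP3A4 had 3.20 to 3.61 with a median of 3.24 at 0.03 to 0.3 µM, against 3.20, 3.28 and 3.15 in DMSO. Both overlapped, with changes of -0.06 and 0.12. The next largest changes after NR1I3 were those of CYP3A7 (-0.22), GSTA1 (-0.18) and CYP2A6 (-0.15), with adjusted p of 0.550, 0.721 and 0.666 (limma). Of 8 targets of the aryl hydrocarbon receptor, which responds to dioxins, none passed. CYP1A1 had 2.30 to 3.07 with a median of 2.62 at 0.03 to 0.3 µM, against 2.66, 2.82 and 2.99 in DMSO, a change of -0.16 (95% interval -0.43 to 0.11). Of 11 genes of steroid hormone synthesis none passed and 4 were above DMSO in mean, with a median change of -0.03. Of these genes 7 lay in the dimmer 2 groups of mean level. At an unadjusted p of 0.05, 2 (18.2%, against 10.4% of all genes) differed, both upward. HSD17B1, which makes oestradiol from oestrone, lay above DMSO on all 9 treated arrays (3.85 to 4.25 against 3.74 to 3.81, change 0.27, adjusted p = 0.439, limma). Over all probe sets 0.767% lay wholly above DMSO in this way.

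No nuclear noncoding RNA, zinc finger, histone or splicing factor gene of the lists passed. For reading the counts that follow, 47.9% of all genes were above DMSO in mean and 10.4% had an unadjusted p under 0.05, and among the brightest probe sets, as given above, more were higher than lower. Of 15 nuclear long noncoding RNAs 9 (60%) were above DMSO and 3 had an unadjusted p under 0.05, all upward. MALAT1, with the largest difference of the list, had 9.87 to 10.9 with a median of 10.3 at 0.03 to 0.3 µM, against 9.52, 10.4 and 9.88 in DMSO, overlapping groups with a difference of 0.52 (adjusted p = 0.305, limma). NEAT1 and SNHG12 had differences of 0.27 and 0.22. Of 22 genes encoding C2H2 zinc finger proteins 16 (72.7%) were above DMSO and 4 had an unadjusted p under 0.05, all upward, with ZNF708 at 0.45, ZNF518A at 0.41 and ZNF268 at 0.40 (median 0.05). Of 14 replication-dependent histone genes 11 (78.6%) were above DMSO (median 0.08) and 3 had an unadjusted p under 0.05, with 0.45 for H1-4, 0.39 for H2BC4 and 0.31 for H2BC8. Of 26 splicing factor genes 18 (69.2%) were above DMSO, with a median of 0.06, and 1 (3.85%) had an unadjusted p under 0.05, downward. The 18 other concentration arrays gave medians of 0.04 for the noncoding RNAs, 0.005 for the zinc finger genes, 0.04 for the histones and 0.02 for the splicing factors against the same DMSO arrays.

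Of 21 genes of the ATF4 amino acid response 17 were above DMSO in mean and none passed. The median was 0.08, and -0.003 at the 6 other concentrations against the same DMSO arrays. At an unadjusted p of 0.05, 2 (9.52%, against 10.4% of all genes) differed at 0.03 to 0.3 µM, both upward. The serine synthesis gene PSPH had a difference of 0.37 and VLDLR one of 0.27 (adjusted p 0.373 and 0.348, limma), and TRIB3, an ATF4 target, had 7.58 to 8.23 with a median of 7.77 at 0.03 to 0.3 µM, against 7.87, 8.10 and 7.34 in DMSO. The groups overlapped and the change was 0.09. Of 15 unfolded protein response genes 11 were above DMSO (median 0.05). In the S phase list 7 of 16 were above DMSO, and CCNE2, a cyclin of S phase entry, came nearest to passing, with 6.08 to 6.80 and a median of 6.56 at 0.03 to 0.3 µM against 6.16, 5.92 and 6.25 in DMSO (change 0.43, adjusted p = 0.163, limma). In the G2 and M phase list 8 of 16 were above DMSO, with the topoisomerase gene TOP2A at 0.41. Of 13 interferon response genes 3 were above DMSO, and OAS3 and OAS1, sensors of viral RNA, had differences of -0.37 and -0.27 (adjusted p 0.216 and 0.291, limma). IFIT1, an antiviral protein that binds foreign RNA, had a difference of 0.27 (adjusted p = 0.427, limma). Among 14 genes of the ABC family, listed by family and not by transport function, 5 were above DMSO and none passed. Of the 14, 4 (28.6%, against 10.4% of all genes) had an unadjusted p under 0.05, all lower. These were ABCA3 (-0.27), ABCF1 (-0.17), ABCE1 (-0.16) and ABCB6 (-0.16).

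**Figure D5:**
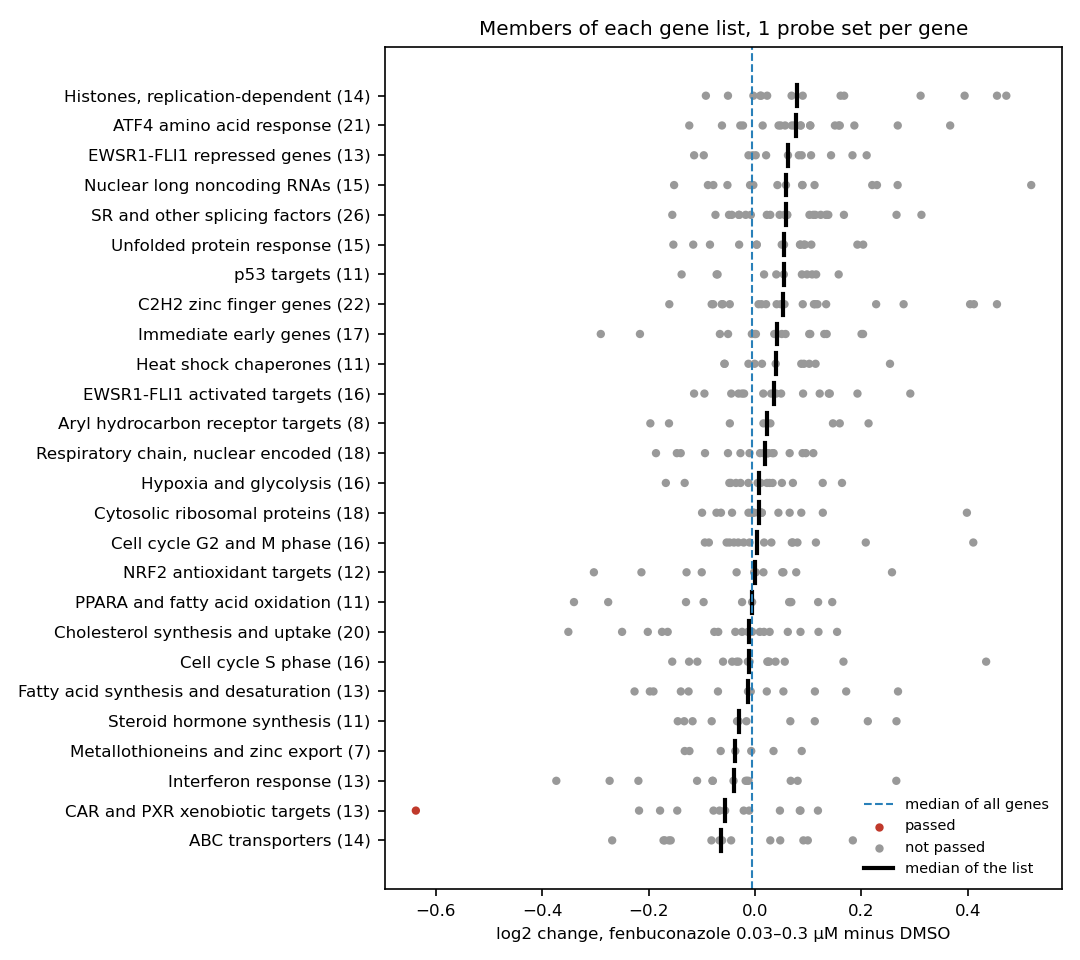
Change between fenbuconazole at 0.03 to 0.3 µM and DMSO (horizontal axis, log2) of each measured member of the gene lists (rows, number of measured genes in brackets). Black bars are list medians and the dashed line is the median of all genes, -0.01; NR1I3, in the CAR and PXR row, is the only red point, that is, the only member that passed.

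Imazalil, an imidazole where fenbuconazole is a triazole, and 2,4-D, a chlorophenoxy acid with no azole ring, were compared with fenbuconazole at the same pooled concentrations, each against the DMSO columns of its own set. The comparisons share the fenbuconazole arrays and, since the DMSO columns of imazalil and 2,4-D correlated as given above, largely the same DMSO arrays on the side of the other chemical, so they are not independent of each other. No probe set passed for fenbuconazole minus imazalil or for fenbuconazole minus 2,4-D (smallest p adjusted over both pairs 0.188 and 0.226, limma), and 3994 (7.31%) and 3456 (6.33%) had an unadjusted p under 0.05. The median 95% interval of a difference, not adjusted for the number of probe sets, reached 0.29 to either side in both pairs. Smaller differences between the chemicals were not detectable for most probe sets, and larger ones also missed the adjusted threshold. Against its own DMSO columns imazalil called 1 probe set (0.00183%) and 2,4-D none (limma), with 3335 (6.11%) and 2347 (4.3%) at an unadjusted p of 0.05. The 16 probe sets chosen for fenbuconazole had differences from DMSO of -0.41 to 0.23 with imazalil and of -0.21 to 0.18 with 2,4-D. They were chosen on these fenbuconazole and DMSO arrays, so the gaps and intervals below follow in part from that choice. The fenbuconazole set's DMSO columns were taken as separate arrays, so the chemical and the DMSO arrays cannot be told apart in these gaps. For CNTRL the difference from DMSO was 1.00 with fenbuconazole, -0.02 with imazalil and 0.17 with 2,4-D (fenbuconazole minus imazalil 1.02, 95% interval 0.63 to 1.41). For KCTD12 it was 0.79 with fenbuconazole, 0.002 with imazalil and -0.09 with 2,4-D (fenbuconazole minus 2,4-D 0.88, 95% interval 0.52 to 1.25). For VRK2 it was 0.66 with fenbuconazole, -0.06 with imazalil and -0.03 with 2,4-D.

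Other genes ranked first between the chemicals, none of which passed, included GINS2, a subunit of the replicative helicase complex. Its probe set 243136_PM_at differed from DMSO by -0.33 with fenbuconazole and 0.58 with imazalil (difference -0.91, 95% interval -1.26 to -0.55, p adjusted over both pairs 0.188, limma). The splicing factor gene SRSF4 (239512_PM_at) differed from imazalil by -0.87, CNTNAP5 by -0.67, ELOA by -0.65 and CC2D2A by -0.55. Upward, DCAF1 differed from imazalil by 0.63, NPHS1 by 0.57 and the calcium pump gene ATP2C1 by 0.51. Against 2,4-D the plasminogen activator gene PLAT differed by 0.81, ANGEL2 by 0.71 and GNL3L by 0.59, and TAAR9 by -0.68, FAAH2 by -0.59, CD163L1 by -0.55, SIGLEC11 by -0.52 and GIMAP8 by -0.43. For CYP51A1 the difference was 0.10 from imazalil (95% interval -0.17 to 0.36) and 0.15 from 2,4-D (95% interval -0.11 to 0.41).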

How the data were processed

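Affymetrix HT HG-U133+ PM arrays measured total RNA of A673 cells. The deposited log2 levels of each probe set were made by RMA in Partek according to the submitters' processing notes (versions not given in the sources used here) separately for the 30 columns of each chemical, so that levels are comparable only within a set. Of 54715 probe sets, 102 controls were left out, which left 54613, of which 40914 had 1 symbol, 864 several and 12835 none. The depth of an array is fixed by its design, and the number of arrays limits the precision.

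These values were fitted by the limma package (3.58.1; R 4.3.3, with data.table, version 1.17.8) over all 30 arrays of the fenbuconazole set with 10 groups and the replicate number as a block, 18 residual degrees of freedom. The pooled contrast was the mean of 0.03, 0.1 and 0.3 µM minus DMSO, with Benjamini-Hochberg adjustment over all probe sets at 0.05. Chemicals were compared as differences of such contrasts over 60 arrays. Array measures were tested by exact permutation within replicate numbers. The script was tested on simulated data. Tables and figures used Python 3.11.15, pandas 2.3.3, numpy 2.4.6 and matplotlib 3.10.9.

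Named genes were all that passed with 1 symbol and without overlap, the first 5 per direction of each other comparison, the first 4 members of a list with a passing member, and 8 genes always given. CDC25A and NMT2, which passed with overlapping groups, and other list members were named after their values had been seen. In 32 lists of 472 genes, the probe set brightest on average over the 30 arrays stood for a gene; genes of the mitochondrial list were not analysed here. The members and lists were chosen with earlier results of these data known.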

Additional observations from a re-analysis of the deposited data

Results flagged for a closer look

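Of 59 sets of 9 treated values tested for a single value far from the others, 4 held one, where chance flags about 1 in 20 groups. The median level over all probe sets was 2.82 on 0.03 µM replicate 2, against a median of 2.78 over the 9 arrays. This array is also the one without which 31 probe sets passed. CC2D2A, named from the comparison with imazalil, stood at 2.68 on 0.1 µM replicate 3, against a median of 2.31. Among the genes named from the comparison with 2,4-D, TAAR9 stood at 2.35 on 0.3 µM replicate 1, against a median of 2.75, and CD163L1 at 2.51 on 0.3 µM replicate 2, against a median of 2.15.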

How the results depend on the processing

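The 16 calls of the pooled comparison depended on the processing. The count was 12 without dim probe sets and 19 with a variance trend, but 9 with equal array medians, 6 after a second quantile normalization, 5 with only probe sets of 1 symbol, 2 with 1 probe set per gene, 2 with array weights, 2 with the 12 arrays under 1 pooled coefficient, and 0 with only the arrays of the contrast, with ACTB and GAPDH covariates or with the nonspecific covariate. It was 3, 4 and 2 without 0.03, 0.1 or 0.3 µM, and 0 to 65 with a replicate number or an array left out. In the 28 of 31 alternatives that tested them, all 16 kept their direction, on arrays shared with their choice. Without the replicate block 3 passed (0 higher, 3 lower), and 3 with a random block (0 higher, 3 lower). Same-numbered arrays deviated together with a mean r of 0.04 (lowest -0.14). Deviations were taken from the mean of each group of 3 arrays. The mean r of -0.02 for arrays of different number largely follows from that centring and is no separate evidence. Of 30 arrays, 22 were closest to their own number. Arrays therefore tended to group by number, although the mean r was small. Whether same-numbered arrays are paired samples was not tested.

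For the 6 other concentrations against DMSO the count of 2 became 0 with only the arrays of the contrast, 1 without dim probe sets, 4 with 1-symbol probe sets, 0 with the nonspecific covariate, and 0 to 1 with a replicate number left out. At 0.03 µM it was 4 with 1 probe set per gene, 5 with 1-symbol probe sets, 4 with a variance trend and 0 to 6 with a replicate number left out. At 0.1 µM it was 0 to 1 with one left out, at 0.3 µM 1 with a trend, and for fenbuconazole minus imazalil 1 with ACTB and GAPDH covariates. The causes were not tested.

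Directions turned only for small changes. The GAPDH difference was 0.032 with 3′ minus middle and -0.065 to 0.011 with a replicate number left out. CYP2A6 was 0.10 and CYP2B6 0.051 with the nonspecific covariate, HMGCS1 0.055 with the ACTB and GAPDH covariates and 0.0011 without 0.1 µM, and EGR1 0.017 with equal medians, 0.0099 without 0.03 µM and 0.016 without 0.3 µM. With a replicate number or an array left out, HMGCS1 was -0.17 to 0.17, INSIG1 -0.044 to 0.28, CYP2B6 -0.13 to 0.0049, EGR1 -0.077 to 0.041 and TRIB3 -0.030 to 0.20. With the mean over all probe sets of a gene, 5 of 31 list medians turned: fibroblast markers (-0.0038), fatty acid oxidation (0.049), cholesterol (0.0051), respiratory chain (-0.016) and NRF2 (-0.0018). Another 13 moved by over 1.5 times. Among them were ATF4 (0.035), EWSR1-FLI1 repressed (0.019) and activated genes (0.022), interferon (-0.079), ABC family genes (-0.036), CAR and PXR (-0.021) and noncoding RNAs (0.033). The rest were p53 (0.088), fatty acid synthesis (-0.046), metallothioneins (-0.0064), ribosomal proteins (0.012), S phase (-0.018) and G2 and M phase (0.037). The alternatives with the nonspecific covariate and with 1 pooled coefficient, 3 of the array measures and the split by accession were chosen after seeing the data.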

Other observations

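Further gene lists held no member that passed. Of 12 measured NRF2 targets, the genes of the oxidative stress response, 6 were above DMSO and GCLM, of glutathione synthesis, had a difference of 0.26 and HMOX1 one of -0.21. Of 11 heat shock chaperones 7 were above DMSO, with the inducible HSPA1A at 0.25. Of 17 immediate early genes 11 were above DMSO (median 0.04), with JUNB at 0.20, NR4A1 at -0.29 and EGR1 at -0.01. Of 11 genes of PPARA and fatty acid oxidation 5 were above DMSO, with ANGPTL4 at -0.34 and CPT1A, the gatekeeper of mitochondrial fatty acid import, at -0.10. Of 11 p53 targets 8 were above DMSO (median 0.05) and of 16 hypoxia and glycolysis genes 9 (median 0.01). Of 18 cytosolic ribosomal protein genes 10 were above DMSO, with RPL23 at 0.40, and of 18 nuclear-encoded respiratory chain genes 11 (median 0.02). Among 7 metallothionein and zinc export genes 2 were above DMSO (median -0.04).

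Of 16 genes activated by EWSR1-FLI1, 10 were above DMSO (median 0.04), with ID2 at 0.29, and of 13 genes that the fusion represses 9 were above DMSO (median 0.06), with CCN2 at 0.21. The fibroblast marker POSTN, which encodes periostin, had 3.90 to 4.85 with a median of 4.41 at 0.03 to 0.3 µM, against 4.14, 3.94 and 3.35 in DMSO. Its difference of 0.62 did not pass (adjusted p = 0.11, limma), and it was 0.42 at the 6 other concentrations and -0.04 with imazalil. The other 7 fibroblast markers had differences of -0.03 to 0.18.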
